A study of Mus musculus with 6 samples.

Results

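The miRNA list counted in this liver library contains many entries of plants beside those of mouse. The entries described here were chosen by name alone: a species code followed by miR and a number with no hyphen between, the form used for plant miRNAs, with a sequence that no mouse entry has. This gave 10514 entries of 87 species codes, 0 of which had the sequence of a mouse entry. They hold 6115 distinct sequences in 2943 numbered families, out of 30721 distinct sequences in the whole table. Each distinct sequence was used once. The naming form also takes in algae, a diatom and oomycetes, which are not land plants. Their 172 sequences found in no land plant had 0 reads.

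The study profiled small RNA of mouse liver after injection of AAV9, an adeno-associated virus used for gene delivery. In both groups the vector expressed Cre recombinase from the Tnnt2 promoter, taken from the cardiac troponin T gene and active mainly in heart muscle. The Cre-miR122 group (AAV-Tnnt2-Cre-miR122) received in addition an element named after miR-122, and the Cre group (AAV-Tnnt2-Cre) did not. The labels name 3 libraries per group, but counts of only Cre-miR122 replicate 2 are described. The values have no replicate and no control, and no group difference was tested. The labels used here name no strain, age, time after injection or diet.

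Plant miRNAs are cut from hairpin transcripts by DICER-LIKE 1, are mostly 21 nt long, often begin with U, and carry a methyl group on the last base. They pair almost fully with their target mRNAs and lead to their cleavage. A number of families occur in nearly all flowering plants, while others are held by one lineage, such as the grasses, which include rice, maize, wheat and barley. Whether plant miRNAs from food reach animal tissues is debated.

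The sequences with the most reads are shown first, followed by osa-miR444b.1 and hvu-miR5051, of families held by few lineages, with 1 read each. They are given as the table writes them (T for U), with the seed, bases 2 to 8, in capitals.
osa-miR159a.1: tTTGGATTgaagggagctctg
ath-miR166a-3p: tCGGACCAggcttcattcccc
osa-miR167d-5p: tGAAGCTGccagcatgatctg
ccl-miR167a: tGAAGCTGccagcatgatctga
osa-miR528-5p: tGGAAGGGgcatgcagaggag
osa-miR444b.1: tGTTGTCTcaagcttgctgcc
hvu-miR5051: tTTGGCACcttgaaactggga
The name is that of the first entry with the sequence in the table. The osa-miR159a.1 sequence is shared by 18 entries, ath-miR166a-3p by 170 and osa-miR167d-5p by 40. A name therefore does not say from which plant a read came.

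Few of the plant entries had reads, and those that did belonged mainly to families held throughout flowering plants. Of the 6115 sequences, 17 had at least 1 read, which is 0.278% (exact Clopper-Pearson 95% interval 0.162 to 0.445), against 4.75% of all distinct sequences of the table. Only 3 had at least 10 reads, where the share over the whole table was 2.67%. The 17 sequences held 81 of the 8163802 reads over distinct sequences, or 9.92 RPM, reads per 1000000 reads of the table (exact interval 7.88 to 12.3). Intervals of reads, and floors, cover only the counting error of reads, and reads copied from 1 molecule by PCR are not independent. Intervals of shares of sequences treat each distinct sequence as a separate draw. Close forms of 1 miRNA are not separate, so these intervals may be too narrow. A sequence with 0 reads may have had a level of up to 0.367 RPM, taking 3 reads as the floor.

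The reads were concentrated on a few sequences. osa-miR159a.1, of the family that targets mRNAs of GAMYB-type transcription factors, had 26 reads (exact Poisson interval 17.0 to 38.1). ath-miR166a-3p, of the family that targets class III HD-ZIP transcription factors of leaf polarity and meristems, had 21 (13.0 to 32.1). osa-miR167d-5p, whose family targets auxin response factors, had 14 (7.65 to 23.5). The intervals of neighbouring values in this order overlap, so the order of the 3 was not resolved at this depth. Together they held 75.3% of the 81 reads. Another 2 sequences, ccl-miR167a with 5 reads and osa-miR528-5p with 3, held 8 reads, and the remaining 12 sequences had 1 read each. On the scale of the library these are low levels: of the 546 mouse sequences with reads, 243 had at least 26.

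By family, miR159 held 26 reads, miR166 held 25 over 5 of its 77 sequences, and miR167 held 20 over 3 of its 66. Of the 26 families listed as conserved across flowering plants, 8 had reads and 18 had none. Their 1217 sequences include 14 with reads, or 1.15% (0.630 to 1.92), and hold 76 of the 81 reads. Among the 4898 sequences of all other families, 3 had reads, or 0.0612% (0.0126 to 0.179), with 5 reads in all. These 3 were osa-miR528-5p, osa-miR444b.1 and hvu-miR5051, named after their values were seen. The remaining 5 conserved families had 1 read each. ath-miR162a-3p belongs to the family that targets the mRNA of DICER-LIKE 1, and osa-miR396e-5p to the one that targets growth-regulating factors. bdi-miR319b-3p belongs to the family that targets TCP transcription factors, and tae-miR395b to the one that targets ATP sulfurylases of sulfate assimilation. The last read fell on bdi-miR168-3p, the strand opposite to the miR168-5p that targets ARGONAUTE 1. The most widely held miR168 sequence, ath-miR168a-5p with 33 entries, had 0 reads.

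Taking from each conserved family the sequence held by the most species, 24 of 26 had 0 reads. The 2 with reads were ath-miR166a-3p with 21 and ath-miR162a-3p with 1. Reads were not rarer here than elsewhere: 0.278% of all 6115 plant sequences and 4.75% of the whole table had reads. Of plant sequences shared by at least 10 entries, 7.95% did. Not all of the 26 are widely held: ath-miR165a-3p is held by 5 species, and ath-miR170-5p and ghr-miR827a by 7 each. ath-miR156a-5p, of the family that times the change from juvenile to adult growth through SPL transcription factors, is held by 40 species under 165 entries and had 0 reads. osa-miR171b (92 entries), ath-miR172a (76), ath-miR164a (86) and ath-miR160a-5p (100) also had 0 reads. The 18 conserved families without reads contain 786 sequences. For each of these families the same floor allows up to 3 reads, and the exact Poisson interval of 0 reads ends at 3.69. Both values lie below the lower bounds of miR159 (17.0), miR166 (16.2) and miR167 (12.2). Both lie within the intervals of the families with 1 read. Families that reports of plant miRNAs in animal tissue have discussed numbered 8, of which 7 are among these entries and 4 had reads. Those 4 were miR159, miR166, miR162 and miR168, with 53 reads on 8 of the list's 348 sequences. miR156, miR157 and miR172 had 0 reads, and miR2911 is not among the entries chosen by this rule.

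Most sequences with reads are entered for grasses, and many of these for other plants too. Of the 17, 15 are entered for at least 1 grass species, and these held 79 of the 81 reads. Eudicots have entries for 10 of the 17, with 47 reads. By taxon, with shared sequences counted under each, the share with reads was 1.03% of 1462 for grasses (0.575 to 1.69) and 2.61% of 153 for other monocots (0.717 to 6.56). It was 1.79% of 112 for the early-branching Amborella trichopoda (0.217 to 6.30), 1.10% of 453 for gymnosperms (0.359 to 2.56) and 0.272% of 3676 for eudicots (0.131 to 0.500). The interval of grasses overlapped those of other monocots, Amborella and gymnosperms, and lay above that of eudicots. Of the 10 eudicot sequences with reads, only 2 have no grass entry. The sets share sequences, so their intervals are not independent and do not test a difference. Sequences entered for grasses and for other plants had reads in 9 of 80 cases, 11.2% (5.28 to 20.3). Those entered for grasses only had reads in 6 of 1382, 0.434% (0.159 to 0.943), and those with no grass entry in 2 of 4653, 0.0430% (0.00521 to 0.155). Within the conserved families the same 3 shares were 10.3% of 78 (4.53 to 19.2), 1.26% of 317 (0.345 to 3.20) and 0.243% of 822 (0.0295 to 0.876). There the intervals of grasses only and of no grass entry overlap. The 6 sequences entered for grasses only held 31 reads and were osa-miR159a.1, osa-miR396e-5p, bdi-miR319b-3p, bdi-miR168-3p, osa-miR444b.1 and hvu-miR5051. osa-miR528-5p is entered for 6 grasses and the bromeliad Vriesea carinata, and for 0 eudicots. miR444, a family of monocots, targets MADS-box mRNAs. The 2 sequences with no grass entry, ath-miR167d and cas-miR166c-3p, had 1 read each and are 1 nt longer than osa-miR167d-5p and ath-miR166a-3p.

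Read species by species, the rice list (Oryza sativa, 577 sequences) covered 69 of the 81 reads over 9 sequences. The maize list (Zea mays, 207 sequences) covered 65 over 5. The list of Brachypodium distachyon covered 60, that of barley (Hordeum vulgare) 48 and that of soybean (Glycine max, 569 sequences) 41. The wheat list (Triticum aestivum), of 121 sequences, covered 27, and the Arabidopsis thaliana list, of 350, covered 23. Most of these reads are the same ones, since the species share the sequences, and the lists differ in length and completeness. The values therefore do not rank plants as sources.

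A single base at the 3′ end distinguishes the miR159 sequence with reads, entered for grasses, from the one most widely entered for eudicots. Positions are counted from 1 at the 5′ end, and the base that differs is in capitals.
osa-miR159a.1: tttggattgaagggagctctG
ath-miR159a: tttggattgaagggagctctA
The form ending in G is entered for 9 species, all of them grasses, and had 26 reads. The form with G21A is entered for 25 species, 22 of them eudicots and 0 of them grasses, and had 0 reads. Its share of the 26 reads of both forms is 0%, with an exact interval up to 13.2%. Most other miR159 sequences had 0 reads whatever plants they are entered for: the 45 with no grass entry, 21 of the 22 entered for grasses only and both entered for grasses and others. In miR166 and miR167 the sequences entered for grasses only, 26 and 21 of them, had 0 reads, while 1 of 41 and 1 of 42 with no grass entry had 1 read each. The other single-base forms of osa-miR159a.1 in the table, G21T, G21C and T7G, also had 0 reads.

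In miR167 a single-base form did not divide in this way. ath-miR167a-5p, the form of osa-miR167d-5p with G21A, is held by 6 grass and 22 eudicot species under 72 entries and had 0 reads, against 14 of osa-miR167d-5p. Its share of the 14 reads of both is 0%, with an exact interval up to 23.2%. Reads of miR167 lay instead on osa-miR167d-5p and on forms 1 nt longer, ccl-miR167a with 5 and ath-miR167d with 1. Another form 1 nt longer, tae-miR167c-5p, entered for 2 grass species only, had 0 reads. The form 1 nt shorter, bna-miR167d, had 0 reads.

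The remaining 4 reads of miR166 lay on close forms of its main sequence that differ at the 3′ end, again with the differing base in capitals.
ath-miR166a-3p: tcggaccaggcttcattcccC
osa-miR166m: tcggaccaggcttcattcccT
osa-miR166g-3p: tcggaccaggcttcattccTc
cas-miR166c-3p: tcggaccaggcttcattccccT
osa-miR166m (C21T) and osa-miR166g-3p (C20T) had 1 read each, or 4.55% of the summed reads with ath-miR166a-3p in each case (0.115 to 22.8). ptc-miR166n, which differs from osa-miR166m by C20T, also had 1 read. Of the 15 sequences in the table that differ by 1 substitution from any of the 3 sequences with at least 10 reads, osa-miR166m and osa-miR166g-3p were the only ones with reads. ath-miR165a-3p, which differs by T17C and targets the same mRNAs in Arabidopsis, had 0. The source of these single reads was not tested. The shorter entries contained in ath-miR166a-3p, zma-miR166h-3p and vvi-miR166a, had 0 reads, so a read was not counted for every entry that it contains.

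None of the 17 sequences was found in annotated mouse RNA. They were searched on both strands of the GENCODE M21 transcripts (GRCm38, the assembly of mm10), the RefSeq windows around gene starts and annotated miRNA hairpins. Exact matches numbered 0 of 17 sequences (exact interval 0 to 19.5%) and 0 of 81 reads. With 1 substitution allowed, the number was again 0. The closest place differed by 2 bases for 2 sequences, osa-miR167d-5p (4 places, all on the antisense strand) and tae-miR395b, and by 3 bases for the other 15. Plant entries without reads gave 4 exact matches among 6098, or 0.0656% (0.0179 to 0.168), and 1.44% with 1 substitution allowed. At most 2 substitutions gave 2 of 17, or 11.8% (1.46 to 36.4), against 17.6% of the entries without reads. With the last 2 bases left off, 0 of the 17 matched exactly, against 0.492% of the entries without reads, which at 17 sequences cannot show a difference. For entries ending in CCA, all without reads, leaving off CCA was tried too and the closer match kept. Their search was thus slightly looser. The same shorter sequences matched with at most 1 substitution in 2 of 17, with 2 reads, against 10.5%. With at most 2 they matched in 15 of 17, with 54 reads, or 88.2% (63.6 to 98.5) against 60.2% (58.9 to 61.4), a looseness at which most plant entries without reads matched as well. The part of the genome outside these sequences, nuclear tRNA genes and the large ribosomal RNA precursor were not searched. None of the 17 ends in CCA, the ending of mature tRNAs, which 96 of the 6115 have.

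The sequences were also far from mouse miRNAs, as nearly all plant entries were. Of the 6098 without reads, 0.574% lay within 2 substitutions of a hairpin, so the distance is not particular to the 17. In annotated mouse hairpins, read in the sense direction, the closest place differed by 3 bases for osa-miR167d-5p and ccl-miR167a, which held 19 reads, and by 4 to 7 bases for the other 15. Of the 11 different seeds, 1 is also a mouse seed. Seeds of the plant entries without reads were not compared, so this number has no background. The shared seed is that of hvu-miR5051, held also by miR-96-5p and miR-1271-5p, whose mouse entries had 47 reads together, and hvu-miR5051 had 1.

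Length and first base of the sequences with reads differed from those of the plant entries as a whole, in values that were not tested. Of the 17, 14 are of conserved families, which hold 1217 of the 6115 sequences. The 5 of miR166 and the 3 of miR167 are close forms with the same first bases. The comparison therefore cannot separate having reads from family. Of the 17, 13 are 21 nt long (76.5%) and these held 73 of the 81 reads, against 53.4% of all 6115. None is 24 nt long, a length that 16.2% of the entries have. The first base is T in 16 of 17 (94.1%), against 47.9% of all entries, and the exception is bdi-miR168-3p. The median number of entries that share a sequence was 8 for those with reads and 1 for all. Of the 88 sequences shared by at least 10 entries, 7 had reads (7.95%), and of the 5094 entered once, 2 did, hvu-miR5051 and bdi-miR319b-3p.

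Entries of other species show how often sequences that no mouse entry has collected reads. They were compared with mouse hairpins only, and not with mouse transcripts as the plant entries were. Those far from hairpins may therefore still occur in other mouse RNA. Over all non-mouse entries the plant share was below that of the rest, 0.278% against 3.95% of 22643. Of the 895 others with reads, 866 lay within 2 substitutions of a mouse hairpin, and 0 of the 17 plant sequences did. With or without reads, 3694 of the 22643 others and 35 of the 6115 plant sequences lay that close. At so small a plant share, 0 of 17 says little about the plant sequences with reads. Among sequences in no mouse hairpin, invertebrate entries had reads in 25 of 9231 cases, 0.271% (0.175 to 0.400), close to the plant 0.278%. Once those within 2 substitutions of a hairpin are also left out, a distance chosen after seeing the data, invertebrate entries had reads in 0 of 9028 cases (exact interval 0 to 0.0409%). The plant entries had reads in 17 of 6080, 0.280% (0.163 to 0.447). This cut left out every invertebrate sequence with reads and no plant sequence with reads. The contrast therefore depends on the cut and was not tested. Viral entries had reads in 0 of 522 (0 to 0.704%), an interval that overlaps that of the plants. Vertebrate entries at this distance had reads in 29 of 9364, 0.310% (0.208 to 0.444), with 2951 reads, 8 sequences of at least 10 reads and 1740 on the highest, so their share lies within the plants' interval and they hold more reads. Those of them not ending in CCA, a subset also chosen after seeing the data, had reads in 20 of 9230, 0.217% (0.132 to 0.334), with 38 reads in all and at most 8 on 1 sequence, against 26 for the highest plant sequence.

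For the tissue, the liver miRNAs miR-148a-3p, miR-122-5p and miR-192-5p held 57.9%, 3.54% and 1.08% of mouse reads. The muscle miRNA miR-1a-3p held 14.7%, miR-206-3p 1.03% and miR-133a-3p 0.0137%. With 1 library, the plant reads could not be set beside another liver, a library without animal RNA or the food of the mice. Their source was not tested.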

How the data were processed

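Small RNA of mouse liver was ligated to adapters at both ends, amplified by PCR, size-selected and sequenced as single reads, per the labels' protocols. The authors deposited raw whole-number counts per miRNA entry, and the column is named for a cleaned read file, per the file headers. It matches the title of Cre-miR122 replicate 2 only. Neither the counting program nor the release of the list is stated in these sources. The build mm10 is named by the submitters' processing notes. A methyl group on the last base can hinder adapter ligation, so counts may understate plant miRNAs.

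Species were sorted by hand into grasses, other plants, animals and viruses. All plant sequences were searched with BWA 0.7.19 up to 2 substitutions, and those with reads by a full scan up to 6. The search covered 141767 GENCODE M21 transcripts, 32851 RefSeq gene start windows and 2202 and 1005 hairpins of GENCODE and RefSeq. Distances to hairpins in the sense direction came from a separate scan of all non-mouse sequences. It allowed more than 6 substitutions for plant sequences and for others with reads, and 2 for the rest. On simulated data, 100% of 600 planted sequences were found. Shares have exact Clopper-Pearson intervals and counts exact Poisson intervals at 95%. Named are sequences with at least 10 reads, the highest of each conserved family with reads and those of the discussed families. Others were named after their values were seen. Members and lists were chosen with earlier results of these data known. Computing used Numba 0.67.0 and SciPy 1.17.1 with NumPy 2.4.6 and pandas 2.3.3 under Python 3.11.15.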

Additional observations from a re-analysis of the deposited data

How the results depend on the processing

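The 17 plant sequences with reads fell to 5 with at least 3 reads and to 3 with at least 10, and the 14 of conserved families to 4 and 3, since most rest on 1 read. The level of 9.92 RPM became 6.74 without osa-miR159a.1 and 592 when reads were summed over entries, which counts a read once per entry that shares its sequence. For the 17 and the 9.92 RPM, leaving out sequences of animal-style entries or of algae, diatoms and oomycetes, and taking names in capitals, could change nothing, since 0 sequences with reads were of these kinds. The same holds for the 14 without exact mouse matches. Scaled to mouse reads the level was 12.2 RPM, within the interval. The share of plant reads with a mouse match was 0% for exact matches, with 1 substitution, with the last 2 bases left off and without osa-miR159a.1. Looser matches were not 0: 15 of the 81 reads with 2 substitutions, and 2 and 54 with the last 2 bases left off and 1 or 2 substitutions. The ratio of the plant share with reads to that of other non-mouse entries was 0.0703. It was 0.0216 with at least 10 reads, 0.307 for sequences in no mouse hairpin, and 2.66 for those more than 2 substitutions from hairpins and not ending in CCA, a setting chosen after seeing the data. Leaving out replicates, other normalizations and tests between groups could not be run with 1 library. No paired analysis was possible because there is 1 library with counts, and no replicate number occurs in both groups.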
